A study of Mus musculus with 208 samples.

Results

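The mRNA levels of 8 desmosome genes were followed through the striatum of Huntington disease knock-in mice. The genes were the plaque genes Dsp, Jup, Pkp2 and Pkp4 and the desmosomal cadherin genes Dsg2, Dsg1c, Dsc2 and Dsc3. They were taken by symbol from 39179 gene rows, of which 37607 carried a symbol, and all 8 were found as single rows. They had been chosen with their levels across lines and ages in view, so differences between lines and ages are described here without a test. Sex, the housing of wild types and differences between animals of 1 group played no part in that choice and were tested.

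Desmosomes are the junctions that rivet neighbouring cells together. Desmogleins and desmocollins, which are cadherins, bind each other across the gap between cells; plakoglobin and the plakophilins hold their inner tails, and desmoplakin ties this plaque to intermediate filaments. The junctions are best known from epidermis and heart muscle, and in the brain from meningeal and ventricular linings rather than from neurons.

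Polyadenylated RNA was sequenced from the striatum, the region whose projection neurons are lost early in Huntington disease. All mice were on the C57BL/6 strain. Knock-in mice were heterozygous, with 1 altered huntingtin (Htt) allele, and its CAG repeat length names the 6 lines. Q20 carries a repeat of normal human length, and the longer repeats are Q80, Q92, Q111, Q140 and Q175. Each line was sampled at 2, 6 and 10 months. Wild types housed with Q20 were sampled at 2 and 10 months, and at 6 months there were 6 wild-type groups, each housed with 1 line. The 26 groups held 8 libraries each, usually 4 females and 4 males. The labels number the libraries but do not say that each is 1 animal, so p-values measure the spread between these libraries. A library is named below by sex and number, such as F3. Tissue pieces hold many cell types, and in them fewer cells of a type and less RNA per cell cannot be told apart.

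Each library held between 29.1 M and 49.6 M counts (M, 1e+06). The median depth was greatest at 6 months, 41.0 M, against 31.9 M for the youngest and 33.0 M for the oldest mice. At 2 months 5 libraries stood apart, with a median correlation with the others under 0.97: M2 and M3 of Q20, M5 of Q80, and M3 and M4 of Q92. The library labelled male M3 of Q80 at 2 months had 0 counts of the Y-linked genes Ddx3y, Uty, Eif2s3y and Kdm5d, and 13.7 counts of Xist, against up to 64987 in females. Every marker of striatal projection neurons was well expressed, with Ppp1r1b, the DARPP-32 gene, never under 697 CPM. CPM are counts per 1e+06 counts of the library after scaling by TMM. In Q175 against Q20 at 6 months, 8 of 9 of these markers fell, and their part in the differences below was not tested.

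The promoters of the genes for desmoplakin and plakoglobin are shown because these proteins meet in the plaque while the Dsp mRNA differed most between lines and the Jup mRNA little. Each window holds the 250 bases before the RefSeq transcription start (GRCm38.p6), read 5′ to 3′ on the gene's strand, with CG pairs in capitals. The Dsp window is chr13:38151044-38151293 on the plus strand and the Jup window is chr11:100397791-100398040 on the minus strand.
Dsp: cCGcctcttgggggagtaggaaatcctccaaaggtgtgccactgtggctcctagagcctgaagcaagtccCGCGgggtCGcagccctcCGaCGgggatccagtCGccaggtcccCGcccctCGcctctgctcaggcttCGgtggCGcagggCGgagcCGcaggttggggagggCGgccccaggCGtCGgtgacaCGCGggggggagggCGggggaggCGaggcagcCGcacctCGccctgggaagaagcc
Jup: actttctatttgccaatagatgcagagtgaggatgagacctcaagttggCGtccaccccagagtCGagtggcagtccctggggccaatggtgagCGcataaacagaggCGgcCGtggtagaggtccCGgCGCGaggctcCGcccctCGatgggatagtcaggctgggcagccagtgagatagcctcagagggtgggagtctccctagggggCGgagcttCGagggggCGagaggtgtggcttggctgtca
The Dsp window held 22 CG pairs, more than 85.2% of 32851 RefSeq promoter windows, and the Jup window held 13, more than 68.5%. The median window held 6. GGGCGG, the GC box, was found 4 times before Dsp and 2 times before Jup on either strand, and at least once in 32.7% of all windows. CCAAT was found 2 times before Jup and not before Dsp, with a share of 33.8% of windows. Neither window held TATAAA, which 12.4% of windows held. Symbols of 3 of the 8 genes, Dsp, Jup and Pkp4, matched the RefSeq promoter table. Pkp4 mRNA also differed little between lines, and its 2 windows held 21 and 32 CG pairs, more than 83.7% and 95.4% of windows. GC boxes numbered 5 and 0 in them and CCAAT 3 and 0. Any link of these counts with the mRNA levels was not tested.

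Per kilobase of transcript, Pkp4, Jup and Pkp2 stood above the cadherins, and Dsp did not. Over all libraries the deposited FPKM (fragments per kilobase of transcript, scaled to the mapped fragments) averaged 73.0 ± 6.26 (SD) for Pkp4 (ENSMUSG00000026991), a p120-catenin relative that also sits at adherens junctions. Jup (ENSMUSG00000001552), which encodes plakoglobin, a component of desmosomes and adherens junctions alike, averaged 17.8 ± 2.97 FPKM. Pkp2 (ENSMUSG00000041957), the main plakophilin of heart muscle, averaged 2.31 ± 0.520 FPKM. Below them, means ran from 0.739 FPKM for Dsg1c to 0.118 FPKM for Dsc3.

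Among the cadherins, Dsg1c (ENSMUSG00000034774), 1 of the mouse desmoglein 1 copies, averaged 0.739 ± 0.259 FPKM. Dsg2 (ENSMUSG00000044393), the widely expressed desmoglein, averaged 0.424 ± 0.166 FPKM. The desmocollin genes Dsc2 (ENSMUSG00000024331) and Dsc3 (ENSMUSG00000059898) averaged 0.141 ± 0.0557 and 0.118 ± 0.0496 FPKM. Dsp (ENSMUSG00000054889), the gene for desmoplakin, averaged 0.147 ± 0.138 FPKM, so the filament linker was as scarce as the desmocollins. Its wide SD came from the differences between groups and from 3 libraries described below.

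The remaining family members were nearly silent. Dsg4 had 0 counts in every library, and Dsg3 and Dsc1 never exceeded 2 counts. Dsg1a averaged 0.0211 FPKM, Dsg1b 0.0116, Pkp1 0.0309 and Pkp3 0.0833. The Dsg1 copies are near-identical, and 98.1% of the Dsg1c values were not whole numbers. Dsg2 overlaps the antisense gene Gm16090, which never exceeded 29.3 counts, and 53.4% of the Dsg2 values were not whole. The share was 51.4% for Pkp4 and 39.9% for Jup. How reads were shared out between genes was not given, and the cause of these shares was not tested. The strand used in counting is not given in the sources used here, so reads of Dsg2 and of its antisense partner cannot be told apart. All 8 genes passed the count filter at each age.

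Desmoplakin mRNA was the member that differed most between lines. At 6 months Q20 libraries held 0.551 to 1.02 CPM of Dsp with a median of 0.874, from 24 to 44 counts. Q140 libraries held 1.44 to 2.81 CPM with a median of 2.16, and Q175 libraries 1.81 to 4.81 with a median of 3.25, from 93 to 230 counts. Neither line overlapped with Q20. They also did not overlap with their own cage mates, whose Dsp ranged from 0.576 to 1.09 CPM beside Q140 and from 0.575 to 1.25 beside Q175.

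The shorter repeats lay near Q20. At 6 months the Dsp median was 0.987 CPM in Q80, 0.910 in Q92 and 1.17 in Q111, and each of these groups overlapped with Q20. Fitted log2 differences from Q20 were 0.19 (SE 0.403) in Q92, 0.47 (SE 0.401) in Q111, 1.33 (SE 0.390) in Q140 and 1.98 (SE 0.384) in Q175. The Q175 value is a 3.95-fold difference. Against its own cage mates the Q175 difference was 1.85 (SE 0.380) on the log2 scale. All line comparisons with Q20 share the Q20 libraries of that age.

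**Figure D1:**
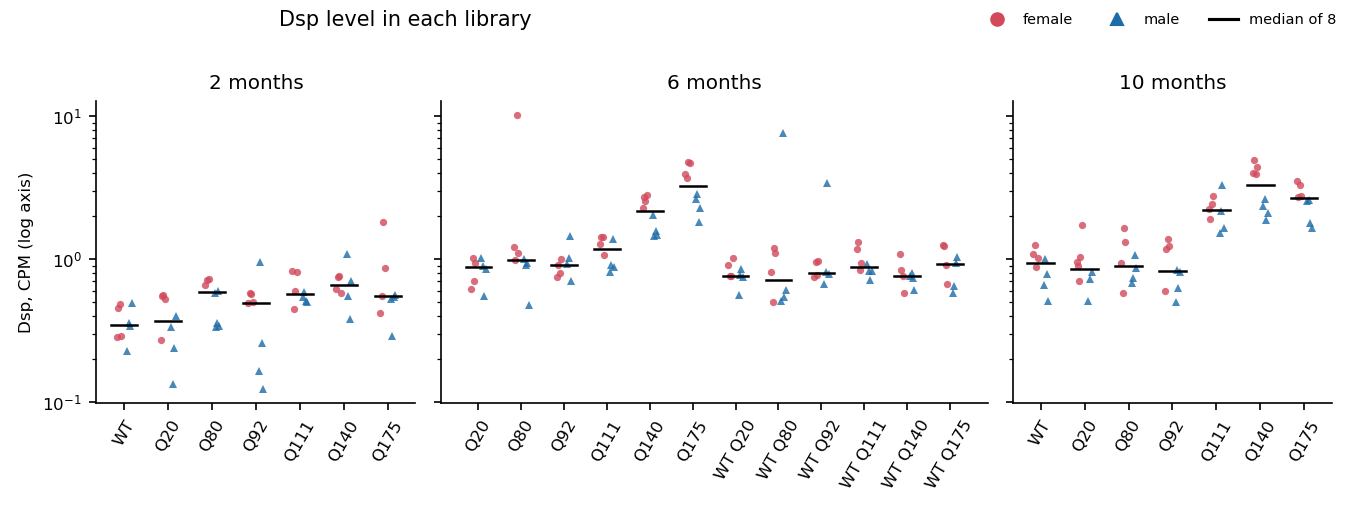
Dsp in CPM (vertical axis, log scale) in every library by group at 2, 6 and 10 months, with females as red circles, males as blue triangles and the median of 8 libraries as a black line. At 6 months all Q140 and Q175 libraries lie above the highest Q20 library of 1.02 CPM, and single libraries of Q80 and of wild types caged with Q80 reach 10.2 and 7.65 CPM.

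At 10 months the Q111 difference from Q20 was larger than at 6 months. At 6 months 5 of 8 Q111 libraries already lay above the highest Q20 library. Without the 3 libraries of highest Dsp outside Q140 and Q175, described below, Dsp in Q111 also passed edgeR's adjusted threshold at 6 months. Dsp ranged from 0.512 to 1.72 CPM in Q20 (median 0.856), from 0.575 to 1.64 in Q80 and from 0.498 to 1.39 in Q92. It ranged from 1.53 to 3.32 in Q111 (median 2.20), from 1.88 to 4.91 in Q140 (median 3.28) and from 1.65 to 3.50 in Q175 (median 2.66). Q111, Q140 and Q175 overlapped with each other, and all 3 lay above the highest wild type of 1.25 CPM. Of 8 libraries each, 6 of Q111, 8 of Q140 and 7 of Q175 lay above the highest Q20 library. Of these 3 lines only Q140 thus did not overlap with Q20. Log2 differences from Q20 were 1.39 (SE 0.182), 1.87 (SE 0.179) and 1.57 (SE 0.181), against 0.16 in Q80 and 0.03 in Q92. Q175 did not exceed Q140 at this age.

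At 2 months Dsp was lower everywhere, with medians of 0.366 CPM in Q20, 0.659 in Q140 and 0.546 in Q175, and the groups overlapped. The Q175 difference from Q20 was 0.87 (SE 0.279) with all libraries, 0.70 without the 5 libraries that stood apart and 0.56 without library F3 of Q175. That library held 1.81 CPM of Dsp, against 0.872 in the next of its group, and 833.9 CPM of 11 choroid plexus markers summed, against 37.6 to 229 in the others. The choroid plexus is the secretory epithelium of the ventricles. Its markers had a median log2 difference of 0.83 in Q175 against Q20 at 2 months. None of the 11 passed edgeR's adjusted threshold, 7 had an unadjusted p under 0.05, and DESeq2 called 1, Aqp1, a water channel gene. Their part in the 2-month Dsp difference was not tested.

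At 6 months 3 libraries held the most Dsp outside Q140 and Q175. Library F3 of Q80 had 10.2 CPM from 414 counts, library M2 of the wild types caged with Q80 had 7.65 CPM from 340 counts, and library M3 of the wild types caged with Q92 had 3.42 CPM from 121 counts. The choroid plexus markers summed to 5891 and 5937 CPM in the libraries of the Q80 cages, against 32.8 to 133 in the other 14 libraries of those cages, but to 55.1 CPM in the library caged with Q92. In the 6-month Q175 libraries they summed to 42.3 to 74.0 CPM (median 58.8), against 31.9 to 78.8 in Q20 (median 44.5), so the groups overlapped. The Dsp difference of Q80 from Q20 was 1.29 (SE 0.391) with these 3 libraries and 0.21 (SE 0.167) without them. The Q175 difference was 1.98 either way, and 1.86 (SE 0.239) with tissue marker scores as covariates. Here and below, those scores were of choroid plexus, cortical excitatory neurons, thalamus and leptomeninges. Markers of ependyma, dentate granule neurons and striatal projection neurons were not among them. At 10 months the choroid plexus sum had a median of 138 CPM in Q140, 45.2 in Q20 and 52.5 in Q175.

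Dsg2 was also higher in the longer repeats, with another order of the lines. At 6 months its difference from Q20 was smaller than that of Dsp in Q140 and Q175 but not in Q111. At 6 months Dsg2 ranged from 1.33 to 2.95 CPM in Q20 (median 1.88), from 2.21 to 3.98 in Q111 (median 3.08), from 3.58 to 4.62 in Q140 (median 4.20) and from 2.84 to 4.48 in Q175 (median 3.97). Log2 differences from Q20 were 0.70 (SE 0.168), 1.09 (SE 0.167) and 0.99 (SE 0.167) in these lines. Q140, the highest, did not overlap with Q20, and Q175 did not overlap with its own cage mates at 1.35 to 2.72 CPM. The wild types caged with Q140 were themselves higher, at 1.82 to 3.60 CPM, so the difference of Q140 from its cage mates was 0.63.

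The Dsg2 pattern persisted in the older mice. At 10 months Dsg2 ranged from 1.47 to 2.39 CPM in Q20, from 2.73 to 4.77 in Q111, from 2.69 to 4.28 in Q140 and from 2.35 to 4.15 in Q175. Log2 differences from Q20 were 0.85 (SE 0.136), 0.76 (SE 0.137) and 0.79 (SE 0.136), nearly the same in the 3 lines. The highest wild type held 1.99 CPM, below every library of Q92, Q111, Q140 and Q175. Of 8 libraries each, 3 of Q92, 8 of Q111, 8 of Q140 and 7 of Q175 lay above the highest Q20 library. Q92 and Q175 thus overlapped with Q20. At 2 months the differences ran from -0.50 in Q80 to 0.20 in Q140, and no group stood apart.

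Dsg1c, the second desmoglein, was highest at intermediate repeat lengths at 6 and 10 months, but not at 2 months. At 2 months its log2 differences from Q20 were 0.09 (SE 0.136) in Q111, 0.20 (SE 0.136) in Q140 and 0.38 (SE 0.136) in Q175, and all groups overlapped with Q20. At 6 months its median was 2.36 CPM in Q20, 3.74 in Q111, 4.35 in Q140 and 3.39 in Q175, with log2 differences of 0.65 (SE 0.124), 0.95 (SE 0.123) and 0.47 (SE 0.124). At 10 months it was 2.04 CPM in Q20, 4.30 in Q92, 4.78 in Q111, 3.59 in Q140 and 2.84 in Q175. The differences from Q20 were then 0.77 (SE 0.142) in Q92, 0.91 (SE 0.141) in Q111, 0.61 (SE 0.143) in Q140 and 0.16 (SE 0.145) in Q175. With the 3 desmoglein 1 copies summed, the Q175 difference was 0.46 at 6 months and 0.20 at 10 months, close to that of Dsg1c alone.

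**Figure D2:**
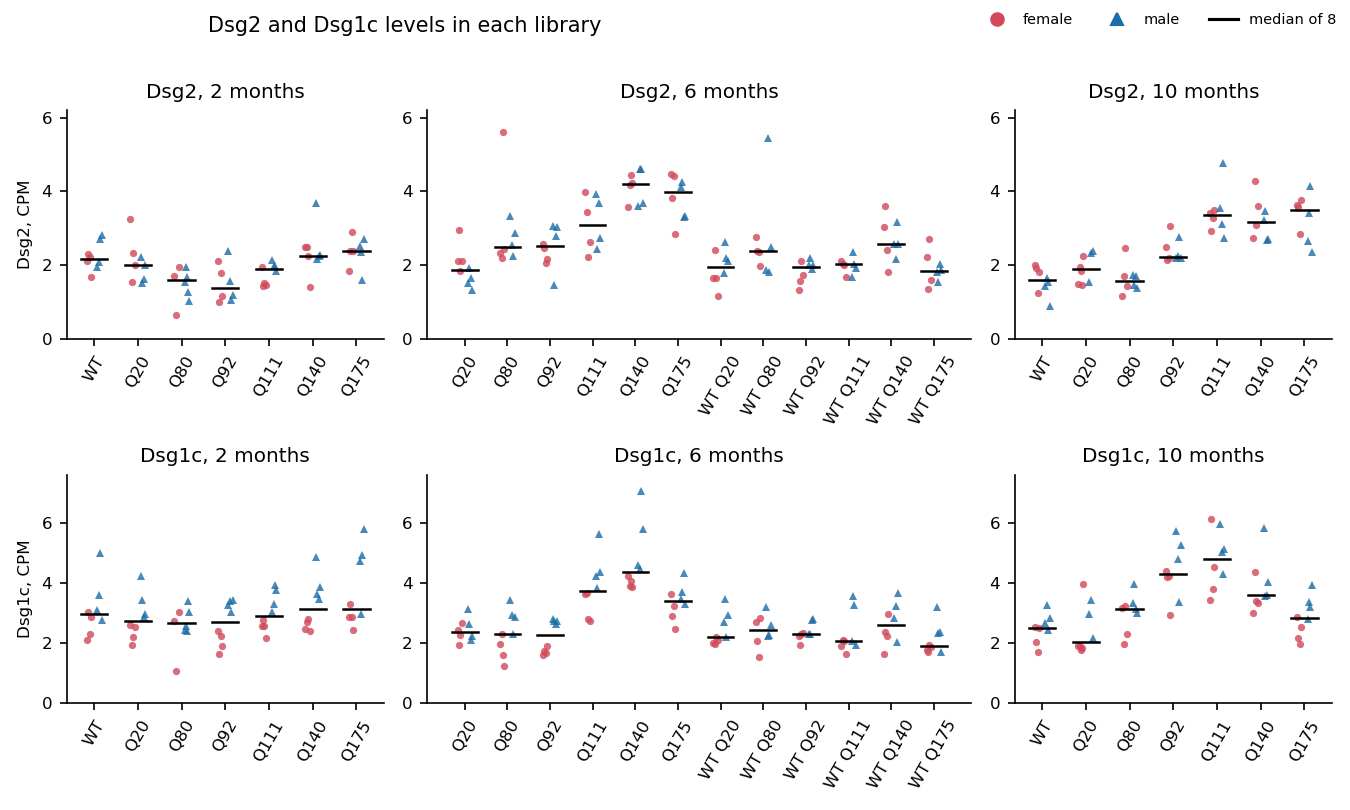
Dsg2 and Dsg1c in CPM (vertical axis) in every library by group at 2, 6 and 10 months, with females as red circles, males as blue triangles and the median of 8 as a black line. Dsg2 is high in Q111, Q140 and Q175 at 10 months (medians 3.35, 3.16 and 3.50 CPM), whereas Dsg1c is highest in Q111 (4.78) and lower in Q175 (2.84).

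The desmocollins, the binding partners of the desmogleins, did not share one course. Dsc2 had a median of 0.483 CPM in Q20, 0.658 in Q140 and 0.562 in Q175 at 6 months, with log2 differences of 0.55 (SE 0.193) and 0.38 (SE 0.193). At 10 months its differences from Q20 ran from -0.44 in Q80 to 0.18 in Q111. Dsc3 was lower in Q175 than in Q20 at 2 months, by a log2 difference of -0.72 (SE 0.326), and at 10 months, by -0.82 (SE 0.290), but not at 6 months, at 0.07 (SE 0.239). Its 10-month range was 0.246 to 0.856 CPM in Q175 and 0.512 to 1.34 in Q20, from 8 to 43 counts, so the groups overlapped. Shorter repeats were lower than Q20 too. At 10 months mean Dsc3 over that of Q20 was 0.64 in Q80, 0.65 in Q92, 0.69 in Q111, 0.75 in Q140 and 0.56 in Q175. At 2 months this ratio was 0.74, 0.68, 0.77, 1.12 and 0.60 in the same lines.

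The abundant plaque genes differed little between lines. Jup at 6 months was 62.4 ± 2.88 CPM in Q175 and 64.6 ± 3.50 in Q20 (SD, n = 8 each), and Pkp4 was 274 ± 9.82 and 276 ± 18.2. Over the 15 comparisons of a line with Q20, log2 differences ran from -0.08 to 0.06 for Jup and from -0.09 to 0.14 for Pkp4. Against its own cage mates at 6 months, Jup was lower in Q140 by a log2 difference of -0.10 (SE 0.0395), with 7 of 8 libraries below the lowest cage mate. It was past edgeR's adjusted threshold, as were 24.2% of all genes in that comparison. The Pkp4 difference of Q175 from Q20 at 10 months, -0.09 (SE 0.0496), did not pass, but did with tissue marker scores, at -0.12 (SE 0.0471), and with only the groups compared, at -0.09 (SE 0.0330). Pkp2 lay between, with 7.37 ± 1.63 CPM in Q175 and 5.82 ± 0.647 in Q20 at 6 months, a log2 difference of 0.34 (SE 0.103). Library M4 of Q175, at 11.3 CPM, was the highest there, and without single libraries the difference ran from 0.24 to 0.37. That library also had the most thalamus marker RNA of its group, and the summed level of 7 thalamus markers had a median of 138 CPM in Q175 (87.3 to 385) and 92.2 in Q20 (86.5 to 128). Between libraries of 1 group Pkp2 had r = 0.48 with the thalamus score (rho = 0.38, adjusted permutation p of 8.36e-05 and 7.67e-05), 0.46 without the 2 farthest and 0.37, 0.43 and 0.68 within ages. With tissue marker scores as covariates the Pkp2 difference was 0.18 (SE 0.1002) and no longer passed edgeR's adjusted threshold. At 10 months the Pkp2 difference was 0.10 (SE 0.121) in Q175 and 0.31 (SE 0.120) in Q140.

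**Figure D3:**
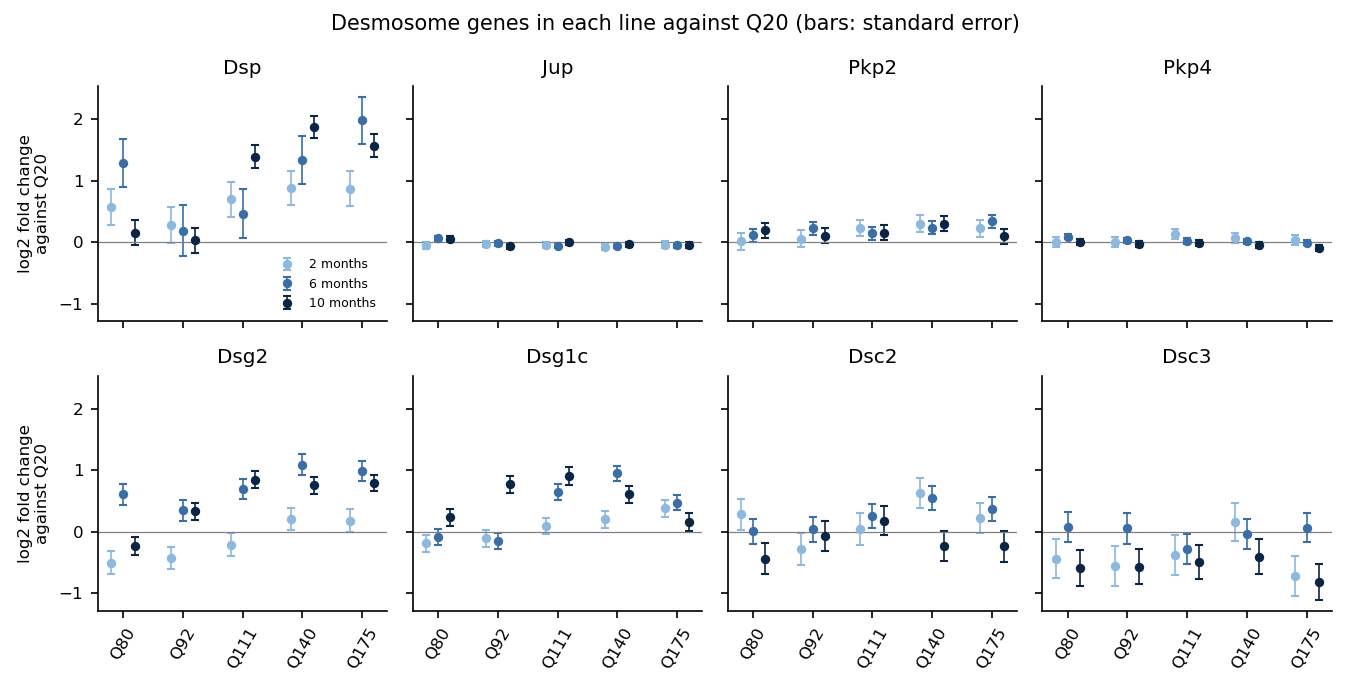
Fitted log2 difference from Q20 (vertical axis, bars ± 1 SE) of the 8 desmosome genes in each longer-repeat line at 2, 6 and 10 months. Dsp reaches 1.98 in Q175 at 6 months and 1.87 in Q140 at 10 months, Dsg2 and Dsg1c stay at or under 1.09, and Jup and Pkp4 stay within 0.14 of 0.

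The number of these genes past an adjusted p of 0.05 (edgeR's quasi-likelihood test, Benjamini-Hochberg over all genes) is given beside the share of all genes past it. Since these contrasts chose the genes, nothing is read from the counts. In Q175 against Q20 they numbered 0 of 8 at 2 months, where 0.218% of all genes passed, 4 at 6 months (36.2%) and 3 at 10 months (24.5%). At 2 months 3 of the 8 had an unadjusted p under 0.05 and DESeq2 called 0. The 4 at 6 months were Dsp, Dsg2, Dsg1c and Pkp2, all higher, and the 3 at 10 months were Dsp and Dsg2, higher, and Dsc3, lower. In Q140 against Q20 the numbers were 4 at 6 months (27.9%) and 3 at 10 months (22.5%), and in Q111 they were 2 (12.8%) and 3 (12.5%). In Q92 at 10 months only Dsg1c of the 8 passed, with 1.12% of all genes.

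Across the 6 knock-in lines a linear slope on repeat length gave the same order. For Dsp the slope was 0.06 (SE 0.0171) at 2 months, 0.12 (SE 0.0220) at 6 months and 0.14 (SE 0.0172) at 10 months, in log2 units per 10 repeats. For Dsg2 it was 0.02 (SE 0.0124), 0.07 (SE 0.0103) and 0.06 (SE 0.0107). The slope passed the threshold in 0, 5 and 3 of the 8 genes at the 3 ages, beside 0.354%, 39.9% and 32.8% of all genes. Without Q175 the Dsp slope at 6 months was 0.09 (SE 0.0333) and did not pass. Without Q20 the slopes of Dsg1c and Dsg2 passed at 2 months, at 0.06 (SE 0.0124) and 0.08 (SE 0.0176). A straight line describes Dsg1c poorly at 10 months, where its slope was 0.02 (SE 0.0138) although Q92 and Q111 were its highest groups. Over the 18 knock-in group means, the log2 levels most like Dsp were those of Ece2 (Pearson r = 0.96), Ywhag, Galnt16, Copa and Osbpl5, among 13261 genes of at least 1 CPM.

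Levels also differed between ages, with Jup highest at 6 months and Pkp4 at 10 months. Group means of Jup ran from 46.8 to 49.4 CPM at 2 months, from 62.1 to 67.5 at 6 months and from 45.3 to 49.3 at 10 months, wild types included. Group means of Pkp4 ran from 247 to 271, from 274 to 296 and from 290 to 308 CPM. The Dsp median of Q20 was 0.366, 0.874 and 0.856 CPM at the 3 ages. Age and any difference in how the libraries of each age were prepared cannot be told apart.

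Dsg1c was higher in males than in females at every age. Mean Dsg1c was 3.56 ± 0.831 CPM in 29 males and 2.46 ± 0.473 in 27 females at 2 months, 3.15 ± 1.07 and 2.39 ± 0.747 at 6 months (48 and 48), and 3.82 ± 1.08 and 3.04 ± 1.08 at 10 months (27 and 29). The male mean exceeded the female mean in 7 of 7, 12 of 12 and 7 of 7 groups. In edgeR's quasi-likelihood fit with 1 term per group, the log2 difference was 0.54 (SE 0.0734, adjusted p = 1.79e-06), 0.39 (SE 0.0516, adjusted p = 5.73e-09) and 0.31 (SE 0.0756, adjusted p = 0.0157). Without the library labelled male that lacks Y-linked counts, which held 2.41 CPM of Dsg1c, the 2-month value was 0.55.

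**Figure D4:**
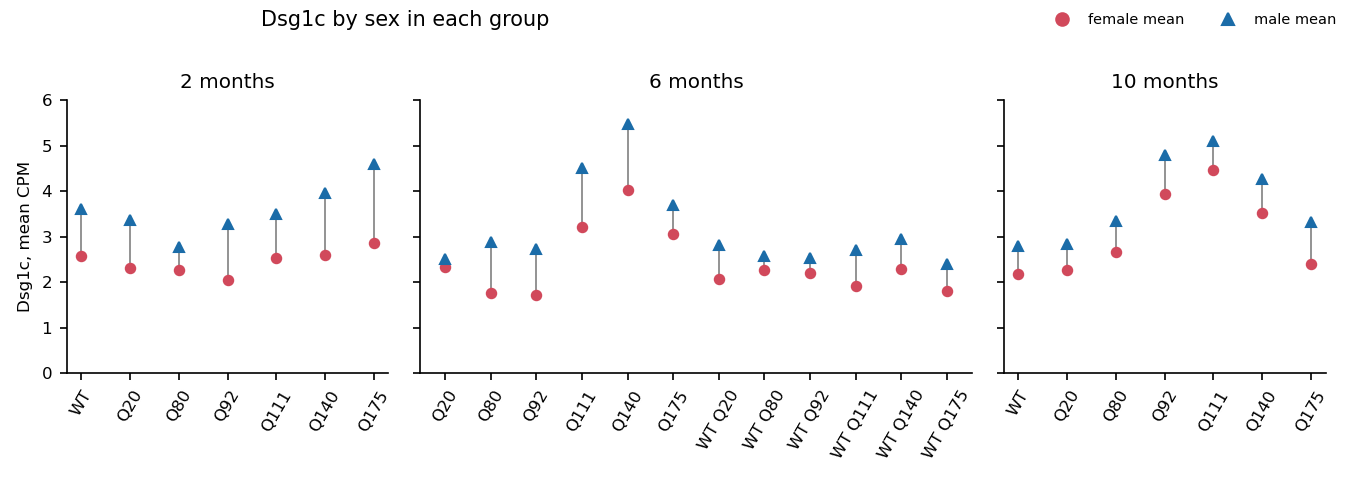
Mean Dsg1c in CPM (vertical axis) of the males (blue triangles) and of the females (red circles) of each of the 26 groups at 2, 6 and 10 months. The male mean lies above the female mean in every group, by a fitted log2 difference of 0.54, 0.39 and 0.31 at the 3 ages.

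Dsp differed by sex the other way. At 10 months Dsp was 1.38 ± 0.818 CPM in males and 1.97 ± 1.25 in females, and the female mean was the higher in 7 of 7 groups. The log2 difference was -0.54 (SE 0.0972), with an adjusted p of 0.000396 in edgeR's quasi-likelihood test. It was -0.47 (SE 0.150, adjusted p = 0.149) at 2 months and -0.26 (SE 0.163, adjusted p = 0.283) at 6 months, where the threshold was missed. At 6 months it was -0.36 (SE 0.0666, adjusted p = 2.08e-05) without the 3 libraries of highest Dsp outside Q140 and Q175. Those 3 were picked on Dsp itself, while the Q175 females at 3.67 to 4.81 CPM stayed in. Choroid plexus markers had a median log2 difference, male against female, of -0.62 at 2 months, 0.11 at 6 months and -0.25 at 10 months, and 2, 0 and 0 of 11 passed, all 2 higher in females. By unadjusted p under 0.05 they were 10, 0 and 3, and DESeq2 called 4, 0 and 0. Their part in the sex difference of Dsp was not tested.

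Small sex differences appeared in further members. Jup was 66.2 ± 4.49 CPM in males and 63.0 ± 3.12 in females at 6 months, higher in males in 11 of 12 groups, with a log2 difference of 0.07 (SE 0.0161, adjusted p = 0.000631 by edgeR). Dsc2 was higher in males by 0.30 (SE 0.0809, adjusted p = 0.00401) at 6 months and by 0.42 (SE 0.132, adjusted p = 0.125) at 10 months. In all, sex differences passed in 1, 3 and 2 of the 8 genes at the 3 ages, beside 0.923%, 18.5% and 1.28% of all genes. Whether the Q175 difference from Q20 itself depended on sex was tested at each age. No member passed, none had an unadjusted p under 0.05 in edgeR, and no gene of any kind was called. For Dsp at 6 months that interaction was -0.86 (SE 0.766), with an interval from -2.36 to 0.64, although the Q175 females at 3.67 to 4.81 CPM did not overlap with the Q175 males at 1.81 to 2.84. The spread in this fit included the 3 libraries of highest Dsp outside Q140 and Q175, and the interaction was not refitted without them.

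The 6 wild-type groups of 6 months were compared with each other. The labels separate them by the line they were caged with, and colony, cohort and library preparation cannot be told apart from housing. No member passed edgeR's F test of any difference among them, where 1.34% of all genes passed. By unadjusted p under 0.05 there were 3, with adjusted p-values of 0.0821 for Dsg2, 0.244 for Dsc3 and 0.293 for Dsp. Dsg2 had group means from 1.85 to 2.67 CPM, the highest in the wild types caged with Q140. DESeq2 was not run on this test.

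Between libraries of 1 group, Dsg2, Dsc2 and Dsc3 varied together. Correlations were taken over log2 CPM after the mean of each group was removed, and p-values came from 100000 permutations within groups, adjusted over 92 relations. Dsg2 and Dsc3 had r = 0.48 (rho = 0.50), Dsg2 and Dsc2 r = 0.39 (rho = 0.41), and Dsc2 and Dsc3 r = 0.36 (rho = 0.35). Each had adjusted permutation p-values of 8.36e-05 for r and 7.67e-05 for rho, from raw values of 1e-05, the smallest that these permutations can give. Without the 2 farthest libraries r was 0.48, 0.36 and 0.36. Within ages r ran from 0.41 to 0.57, from 0.35 to 0.49 and from 0.30 to 0.41. Dsg1c had r = 0.39 (rho = 0.37) with Dsc2, with the same adjusted permutation p-values, 0.37 without the 2 farthest libraries and 0.30 to 0.48 within ages. Dsg1c and Dsc2 were both higher in males, and the sex difference lies within these deviations. After removal of the mean of each group and sex, r was 0.27 for Dsg1c and Dsc2. It was then 0.50 for Dsg2 and Dsc3, 0.42 for Dsg2 and Dsc2, and 0.43 for Dsc2 and Dsc3. With only group means removed, r of Dsg1c was 0.15 with Dsg2 (rho = 0.11, adjusted permutation p of 0.123 and 0.276) and 0.05 with Dsc3 (rho = 0.03, adjusted permutation p of 0.681 and 0.805). These correlations are weak to moderate and the libraries share dissection and depth.

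Desmoplakin mRNA went with Dsg2 and Dsc3 and against Dsg1c. Dsp had r = 0.19 with Dsc3 (rho = 0.21, adjusted permutation p of 0.0218 and 0.0158), 0.19 without the 2 farthest libraries and 0.10, 0.04 and 0.63 within the 3 ages. With Dsc2 its r was 0.00261 (rho = -0.02, adjusted permutation p of 0.975 and 0.886). Dsp and Dsg2 had r = 0.34 (rho = 0.24, adjusted permutation p of 0.00103 and 0.00470), with 0.30 without the 2 farthest libraries and 0.15, 0.43 and 0.43 within the 3 ages. Dsp and Dsg1c had r = -0.28 (rho = -0.35, adjusted permutation p of 0.00153 and 7.67e-05), with -0.28 without the 2 farthest and -0.29, -0.29 and -0.23 within the ages. Their opposite sex differences lie within these deviations. After removal of the mean of each group and sex, r was -0.02 for Dsp and Dsg1c and 0.38 for Dsp and Dsg2.

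Dsg2 and Dsc3 went with markers of the ependyma, the ciliated lining of the ventricles. The score is the mean standardised log2 CPM of 7 markers. Dsg2 had r = 0.65 with it (rho = 0.61), and r was 0.63 without the 2 farthest libraries and 0.38, 0.86 and 0.57 within ages. Dsc3 had r = 0.58 (rho = 0.55), 0.57 without the 2 farthest and 0.59, 0.64 and 0.49 within ages. For both, the adjusted permutation p-values were 8.36e-05 for r and 7.67e-05 for rho. The genes most like Dsg2 in these deviations were Dnah6 (r = 0.77), Cfap65 (0.76) and Dnah9 (0.76), genes of motile cilia, and those most like Dsc3 were Ak7 (0.68), itself 1 of the 7 markers, Cdhr4 (0.67) and Cdhr3 (0.65).

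The ependymal markers overlapped between lines. Their summed level at 6 months was 15.4 to 30.7 CPM in Q20, 15.2 to 26.4 in Q140 and 17.6 to 29.6 in Q175. Their median log2 difference of Q175 from Q20 was -0.61, 0.29 and 0.01 at the 3 ages. None of the 7 passed in Q175 against Q20 at any age, by edgeR or by DESeq2, and 4, 0 and 0 had an unadjusted p under 0.05. The libraries F3 of Q80 and M2 of the wild types caged with Q80, which were high in choroid plexus markers, also had the highest ependymal sums at 6 months, 45.0 and 47.1 CPM, and the highest Dsg2, 5.62 and 5.46 CPM.

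**Figure D5:**
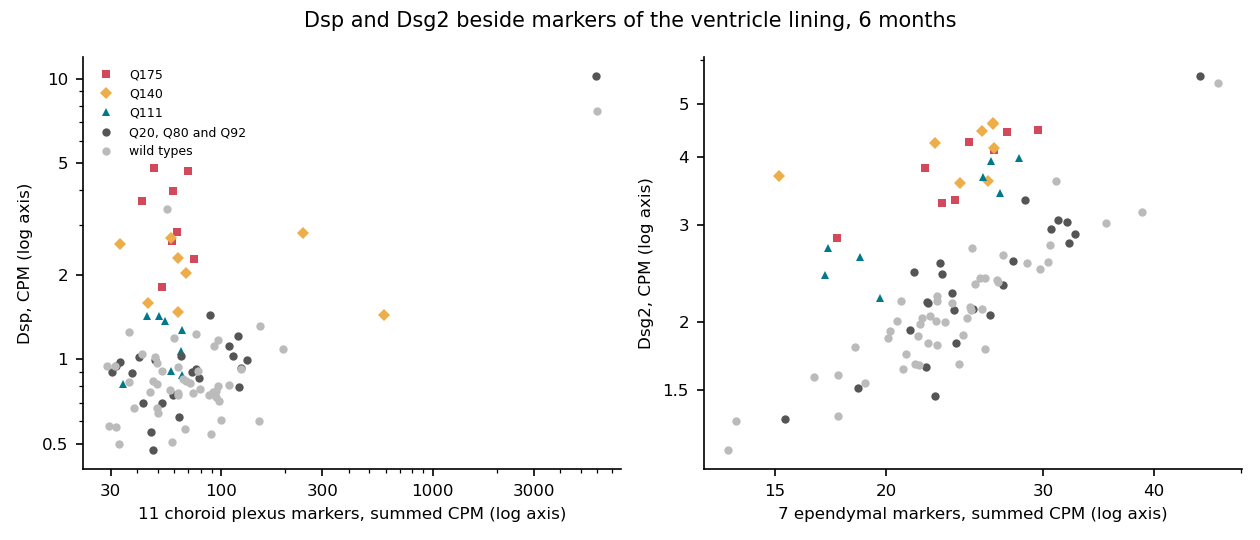
Libraries of 6 months, with Dsp against the summed CPM of 11 choroid plexus markers and Dsg2 against the summed CPM of 7 ependymal markers (log scales, CPM on each axis). The libraries with 10.2 and 7.65 CPM of Dsp lie at the far right of the choroid plexus axis, while Q175 libraries reach 1.81 to 4.81 CPM of Dsp at choroid plexus sums of 42.3 to 74.0.

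Dsp went with markers of several other tissues between libraries. With choroid plexus markers the value rested in part on few libraries. Over all libraries r was 0.54 (rho = 0.29, adjusted permutation p of 0.000263 and 0.00162), and it was 0.33 without the 2 farthest libraries. Within ages r was 0.30, 0.69 and 0.45. With markers of dentate granule neurons, cells of the hippocampus, r was 0.35 (rho = 0.30, adjusted permutation p of 8.36e-05 and 0.000184), 0.32 without the 2 farthest libraries and 0.40, 0.29 and 0.46 within ages. With markers of the leptomeninges, the inner brain coverings, r was 0.38 (rho = 0.15, adjusted permutation p of 0.00576 and 0.137), 0.15 without the 2 farthest and 0.15, 0.55 and 0.17 within ages. Other members shared some of these relations. Dsg2 had r = 0.31 with choroid plexus markers (rho = 0.14, adjusted permutation p of 0.00456 and 0.124), 0.14 without the 2 farthest. Dsg2 had r = 0.33 with dentate granule neuron markers (rho = 0.32, adjusted permutation p of 0.000153 and 0.000184). Pkp4 had r = 0.54 with the latter (rho = 0.49, adjusted permutation p of 8.36e-05 and 7.67e-05). With the striatal projection neuron score Dsp had r = -0.24 (rho = -0.15, adjusted permutation p of 0.0118 and 0.105). This r was -0.15 without the 2 farthest and -0.35, -0.28 and 0.01 within ages. With that score r was -0.21 for Dsg2, -0.25 for Pkp2, -0.47 for Pkp4 and -0.02 for Dsc3. It was 0.27 for Dsg1c, 0.20 for Jup and 0.00338 for Dsc2. The genes whose deviations were most like those of Dsp were Abca4 (r = 0.66), Col8a1 (0.63), a collagen gene, and Sulf1 (0.62), a heparan sulfate sulfatase gene.

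The remaining members each had other companions. Deviations of Pkp4 were most like those of Rassf2 (r = 0.91), Pacs2 (0.91) and Plxnb3 (0.90). Those of Jup were most like Sox10 (0.58), a regulator of oligodendrocytes, Gna12 (0.57) and Frmd8 (0.55). Those of Pkp2 were most like Rasd1 (0.61), Tunar (0.61) and Opn3 (0.60), and those of Dsc2 most like Dlx1 (0.53), Rimklb (0.51) and Dock11 (0.46). Those of Dsg1c were most like the Y-linked genes Ddx3y, Eif2s3y and Uty (0.63 each), as its sex difference lies within the groups.

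Other junction genes were counted in Q175 against Q20 from lists written with earlier results of these data known. Of 10 further desmosome genes, 4 could be tested at 6 months: the plakin genes Evpl and Ppl, the membrane protein gene Perp and Pkp1. None passed at any age by edgeR or DESeq2, with 0, 1 and 0 at an unadjusted p under 0.05 at 2, 6 and 10 months. Among all genes 0.218%, 36.2% and 24.5% passed by edgeR at these ages. The list's median log2 difference at 6 months was -0.18, beside 0.01 for all genes tested. Beside these shares, 0 calls among so few genes do not set the plakins Evpl and Ppl apart from other genes. Dsp, Dsg2 and Dsg1c were themselves chosen with such differences in view. For the slope on repeat length, 1 of the 4 passed at 6 months, with a negative slope, beside 39.9% of all genes. At 2 and 10 months 0 of 3 passed for the slope.

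Adherens junction genes changed in either direction. At 6 months 4 of 16 rose: Cdh2, the N-cadherin gene, by 0.19 on the log2 scale (SE 0.0382), Nectin1 by 0.20, Arvcf by 0.13 and Ctnnb1, the beta-catenin gene, by 0.09. Another 4 fell: Vcl, the vinculin gene, by 0.24, Cdh5, the endothelial cadherin gene, by 0.19, Ctnnd2 by 0.16 and Ctnna1 by 0.09. At 10 months 0 of 15 rose and 4 fell, namely Vcl, Ctnnd2, Cdh5 and Nectin1. At 2 months 0 of 15 passed by edgeR or DESeq2, and 0 had an unadjusted p under 0.05. Among all genes, 36.2% passed in either direction at 6 months and 24.5% at 10 months. The list's median was 0.02 at 6 months and -0.03 at 10 months. For the slope on repeat length, 4 of 15 rose and 4 fell at 6 months, and 2 of 15 rose and 4 fell at 10 months. Of all genes, 39.9% and 32.8% passed for the slope.

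Few intermediate filament and plakin genes passed. The list is mostly of neurofilament, glial filament and plakin genes. Of 14 tested, 1 passed at 6 months and 2 at 10 months, where 36.2% and 24.5% of all genes did. Vim, the gene for vimentin, to which desmoplakin binds, rose by 0.16 (SE 0.0672) at 6 months and by 0.45 (SE 0.0819) at 10 months, and Gfap, the astrocyte filament gene, rose by 0.48 (SE 0.106) at 10 months. The list's medians were 0.04 and -0.02. For the slope on repeat length, 0 of 14 rose and 2 fell at 6 months, and 1 of 13 rose and 0 fell at 10 months. The epidermal keratin genes Krt5 and Krt14 were too low to test. Among 11 tight junction genes, Cldn11, a myelin claudin gene, fell by 0.19 at 6 months, and Cldn11 and Cgn, the cingulin gene, fell by 0.21 and 0.35 at 10 months. At 2 months no gene of either list passed by edgeR or DESeq2, with 0 and 2 at an unadjusted p under 0.05. The Dsp differences of 1.98 and 1.57 at 6 and 10 months exceeded every called difference in these lists.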

How the data were processed

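Striatal RNA was extracted with the miRNeasy kit and polyadenylated RNA was sequenced on HiSeq instruments, per the labels' protocols. CASAVA 1.8.2 is listed in the submitters' processing notes. Which aligner, genome build and counting settings were applied was not given in the sources used here. Deposited were expected counts per gene, which the authors left fractional (32.7% of values above 0 were not whole to within 1e-06), and FPKM, scaled by the authors for depth and transcript length. Counts were rounded for the models, and FPKM were used to compare genes with each other.

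Libraries of 1 age at a time were fitted in edgeR 4.0.16 (R 4.3.3), with genes kept by filterByExpr (minimum count 10, minimum total 15), TMM factors, trended dispersion, robust quasi-likelihood tests, and terms for group and sex. Called means a Benjamini-Hochberg adjusted p under 0.05 over all genes of a test. The SE is the log2 difference over the square root of F. Levels are CPM of TMM-scaled libraries, whose prior count in log2 CPM was 1. Correlations, permutations, promoter counts and figures were made with numpy 2.4.6, pandas 2.3.3, scipy 1.17.1 and matplotlib 3.10.9. Promoter windows came from RefSeq (GRCm38.p6). Interval and count errors cover counting and sampling of libraries, not PCR copies.

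No 2 libraries of a group agreed within sampling noise (smallest chi-square per degree of freedom 3.71). Alternatives were DESeq2 1.42.0, RLE factors, no filter, limma 3.58.1 on log2(FPKM + 1) and log2(FPKM + 0.1), only the groups compared, the replicate block, wild types as the reference, tissue scores as covariates, the rank of the line, Q20 or Q175 left out of the slope, and each library left out in turn. Chosen after seeing the data were fits without the 3 libraries of highest Dsp outside Q140 and Q175. So were fits without the library lacking Y-linked counts and with the Dsg1 copies summed. The scripts were tested on simulated data.

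The desmosome genes, the gene lists and the rule for named genes were chosen with earlier results of these data known. The rule names the 8 genes, Htt, list members, up to 3 genes of highest correlation with each, and 5 over the knock-in group means for Dsp. Correlations, fixed as a description, are printed with permutation p-values. A tight junction result at 6 months is not reported here.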

Additional observations from a re-analysis of the deposited data

Results flagged for a closer look

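In 34 of the checks of 8 genes in 26 groups, a library lay far from the other 7 of its group relative to the whole range, in CPM. Chance alone would flag about 1 in 20 groups, and for none of these libraries was a cause tested. Dsp was flagged 6 times, each time for a high library: 10.2 in Q80 at 6 months (F3, next 1.21), 7.65 in the wild types caged with Q80 (M2, next 1.19), 3.42 in those caged with Q92 (M3, next 0.967), 1.81 in Q175 at 2 months (F3, next 0.872), 1.44 in Q92 at 6 months (M3, next 1.02) and 1.72 in Q20 at 10 months (F5, next 1.04).

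Dsg2 was high in the same libraries of the Q80 cages, at 5.62 in Q80 (F3, next 3.33) and 5.46 in the wild types (M2, next 2.76). It was also high at 3.24 in Q20 at 2 months (F1), 2.47 in Q80 at 10 months (F3) and 4.77 in Q111 at 10 months (M3). Library M3 of Q111 at 10 months was high for Jup too, at 55.8 (next 48.4). Jup was further high at 71.1 in Q140 at 6 months (M1) and 57.2 in wild types at 10 months (F1).

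Pkp2 was high at 11.3 in Q175 at 6 months (M4, next 7.38), 9.31 in Q175 at 2 months (M3), 10.8 in Q175 at 10 months (F2), 8.51 and 11.2 in Q92 at 2 and 10 months (M3 at each age) and 7.66 in the wild types caged with Q80 (M4). It was low at 6.06 in Q140 at 6 months (M3). Pkp4 was low at 180 in Q80 at 2 months (M5, next 243, a library that stood apart over all genes), 209 in Q111 at 2 months (F2), 243 in Q92 at 6 months (F2), 284 in Q80 at 10 months (M4), 261 in the wild types caged with Q111 (M3) and 271 in wild types at 10 months (F2). It was high at 354 in the wild types caged with Q80 (M1).

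Dsg1c was low at 1.06 in Q80 at 2 months (F2, next 2.41) and high at 3.21 in the wild types caged with Q175 (M1). Dsc2 was high at 1.96 in Q140 at 2 months (M1, next 0.802), 0.841 in Q111 at 6 months (M1), 1.11 in wild types at 2 months (M4) and 0.798 in the wild types caged with Q20 (M2).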

How the results depend on the processing

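For Q175 against Q20, 220 of 246 values of the 8 genes under the alternatives moved by less than 1 SD between libraries and 26 by more. All 384 values with 1 library left out moved by less. Leaving out 1 of 8 libraries can hardly move a group mean by 1 SD, so nothing is read from that count. The Dsp log2 difference was 0.056, 0.36 and 0.26 at 2, 6 and 10 months on log2(FPKM + 1), and 1.36 and 1.06 at 6 and 10 months on log2(FPKM + 0.1). With 1 library left out it ran from 0.56 to 0.97, from 1.91 to 2.07 and from 1.50 to 1.71. On FPKM the small Jup difference changed sign, to 0.03 at 6 months and 0.02 at 10 months. The Dsg1c slope at 10 months was 0.07 without Q175 and -0.03 without Q20, and the Dsg2 slope at 2 months was 0.08 without Q20. The Dsp slope at 6 months was 0.14 without the 3 libraries of highest Dsp outside Q140 and Q175. Without them 5 of the 8 genes passed for sex at 6 months, with Dsp and Pkp2 added, and Dsp passed in Q111. In Q175 against Q20 the number of the 8 genes past the threshold stayed at 0 in every setting at 2 months; at 6 months Pkp2 was lost with wild types as the reference and with tissue scores, and at 10 months Dsc3 was lost on FPKM and Pkp4 was added with tissue scores and with only the groups compared. Intermediate filament genes at 6 months numbered 2 with wild types as the reference and 0 without a filter. Tight junction genes numbered 1 at 6 months without a filter and 4 at 10 months with wild types as the reference. Over all genes at 2 months, calls numbered 37, against 65 by DESeq2, 79 with wild types as the reference, 22 on log2(FPKM + 1) with a filter, and 11 with only the groups compared. The cause of these shifts was not tested, apart from the pseudocount, which shrinks differences of low genes by construction. Libraries of different groups with the same name, such as F3, share a sex and a replicate number. They had mean correlations of 0.16, 0.31 and 0.21 in their deviations, but not every pair exceeded 0.1. The part of sex in these values was not tested. With the replicate block the Dsp difference was 0.84, 1.97 and 1.76, and the same members passed at 6 and 10 months. Dsp had 5 to 24 counts per library in Q20 and 7 to 15 in wild types at 2 months, so differences there are not firm at this depth.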
